A study of Mus musculus with 2 samples.

Results

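Osm and Lif are neighbouring cytokine genes on mouse chromosome 11, and the binding of STAT3 and STAT5 around them was measured in Th17 cells. All sites with their centre at chr11:4100000-4200000 (mm9) were taken, a stretch of 100 kb in which Osm lies at about 4.136 to 4.141 Mb and Lif at about 4.157 to 4.172 Mb. It held 17 of the 86798 sites found in the genome, where 0.862% of the 200 bp windows with a STAT3 read and 1.5% of those with a STAT5 read were called. A site was a stretch with more reads than its surroundings in at least 1 of the 2 libraries, and sites are numbered 1 to 17 along the chromosome. No mm9 annotation was used here, so gene bounds are known to about 1 kb, and exons and introns were not assigned.

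Both libraries came from wild type C57BL/6J CD4+ T cells of spleen and lymph nodes, sorted as naive cells and cultured for 3 days towards the Th17 type. The culture held plate-bound anti-CD3, anti-CD28, IL-6 at 20 ng/ml, TGF-beta at 2 ng/ml and anti-IL-4. Anti-IL-2 is also listed, in the unit IU/ml, which is usual for IL-2 itself. Cells were then given IL-6 at 40 ng/ml for 30 minutes before precipitation with an antibody to STAT3, or IL-2 at 200 IU/ml for 30 minutes before precipitation with STAT5A and STAT5B antibodies mixed together. The antibody and the cytokine changed together, so their effects cannot be told apart. Each antibody had 1 library, and no input or IgG library was used here. The labels give neither the age nor the number of the mice, and without RNA the labelled cell type could not be checked against its markers.

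Oncostatin M (Osm) and leukaemia inhibitory factor (Lif) belong to the interleukin-6 family, whose members signal through receptors that contain gp130, the protein of Il6st. Mouse oncostatin M acts mainly through gp130 paired with the oncostatin M receptor (Osmr), and LIF through gp130 paired with the LIF receptor (Lifr). These receptors activate JAK kinases, which phosphorylate STAT3, and IL-6 itself acts this way in T cells. IL-2 acts mainly through STAT5. Mouse Osm is known as an early gene that several cytokines switch on through JAK and STAT5, and LIF is best known for keeping mouse embryonic stem cells undifferentiated.

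The promoter of Lif is shown because no site was centred within 3 kb of the rounded start of Lif. The window is chr11:4257318-4257617, plus strand, on GRCm38.p6 from RefSeq, and runs from 250 bases before to 50 bases after the start. Capitals mark the 50 bases after the start.

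Lif: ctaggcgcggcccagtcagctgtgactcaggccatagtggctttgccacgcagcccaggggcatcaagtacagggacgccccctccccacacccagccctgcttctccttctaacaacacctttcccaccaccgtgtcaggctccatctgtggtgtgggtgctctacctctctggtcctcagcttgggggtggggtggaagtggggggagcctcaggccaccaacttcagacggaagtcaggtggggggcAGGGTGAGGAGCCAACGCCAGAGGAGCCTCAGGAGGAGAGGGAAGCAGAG

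It holds neither TTCNNNGAA, the palindrome that STAT proteins typically bind, nor TTCNNNNGAA, the form with one more base in the gap. Both motifs read the same on either strand. Of all 32851 promoter windows of this length, 8.3% hold TTCNNNGAA, 6.95% hold TTCNNNNGAA and 14.6% hold at least 1 of them. Among 12 genes for gp130 cytokines and receptors, 9 had at least 1 window, 11 windows in all, and 2 of these genes held a match. They were Il11, a cytokine gene with TTCACAAGAA in 1 of its 2 windows, and Cntf, the gene for ciliary neurotrophic factor, with TTCGAGGGAA. The windows of Lif, Il6, Ctf1, Il6st, Osmr, Lifr and Il6ra held no match, and Osm, Clcf1 and Il27 had no window. The windows are on another build than the reads and were not placed on the read map.

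The STAT3 library held 20784388 reads on nuclear chromosomes and the STAT5 library 17963766, each read at its own position and strand. Read centres were counted in 200 bp and scaled by the nuclear reads of each library (RPM). At most 400 reads can fall in 200 bp, so tall sites are compressed. Ratios are STAT3 over STAT5 on the RPM scale with an exact 95% interval, which covers counting error only. A call of higher with STAT3 or with STAT5 required the whole interval to be beyond 2-fold. As each antibody had 1 library, there is no replicate check, no p-value was computed between the libraries, and differences are between these libraries.

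STAT5 reads dominated the interval. It held 5555 STAT3 reads and 8476 STAT5 reads, giving a ratio of 0.566 (0.547 to 0.586). Summed over the 17 sites, there were 1877 STAT3 reads and 3293 STAT5 reads, giving a ratio of 0.493 (0.465 to 0.522), against 0.599 (0.599 to 0.600) over all sites of the genome. Outside the sites the interval had 30.3 STAT3 and 31.5 STAT5 reads per kb, a ratio of 0.830 (0.787 to 0.876). The genome-wide means were 8.80 STAT3 and 7.61 STAT5 reads per kb. Clusters that fell short of a call count as outside sites and raise these means. Over the 49 kb of the interval, in steps of 1 kb, that met neither a site nor such a cluster, the median was 15 STAT3 and 10 STAT5 reads per kb. The sites took up 6.50% of the length and held 44.2% of the STAT3 reads (exact 95% interval 42.9 to 45.5%) and 57.1% of the STAT5 reads (56.1 to 58.2%).

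STAT3 regions were called at 13 of the 17 sites (76.5%), against 65.9% of all sites, and STAT5 regions at 14 (82.4%), against 81.7%. Both were called at 10 sites (58.8%, against 47.5% of all sites), STAT3 alone at 3 (17.6%, against 18.3%) and STAT5 alone at 4 (23.5%, against 34.1%). With 17 sites these shares lie near the background. No site was called higher with STAT3, where 3.18% of all sites were, and 5 (29.4%) were called higher with STAT5, where 27.6% of all sites were. When the libraries were scaled on 10 kb bins that held no region, STAT3 levels dropped to 0.722 of their RPM value, and 9 of the 17 sites (52.9%) were then higher with STAT5, against 34.4% of all sites. Again 0 of the 17 were higher with STAT3, against 1.19% of all sites. An interval beyond 1.5-fold in place of 2-fold, or a correction for positions already taken, also gave 9 sites higher with STAT5, against 33.6% and 29.3% of all sites. The corrected intervals leave out the error of the correction. A call comes more easily at sites with more reads, and none of these shares is matched for height. Among sites with 200 or more STAT5 reads, 5 of 10 here were called higher with STAT5 on the RPM scale, against 69.3% in the genome. The median site here had 110 STAT3 and 221 STAT5 reads, against 26 and 31 over all sites. Part of this height comes from the call, which needed 4-fold over the local mean. That mean was 78.6 STAT5 reads at site 7 and 41.4 at site 12, so lower clusters there could not be called. A tile of 100 kb held a median of 1 site, and 340 of 25567 such tiles (1.33%) held 17 or more. On chromosome 11 the median was 4 sites, and 36 of 1189 tiles (3.03%) held 17 or more.

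**Figure D1:**
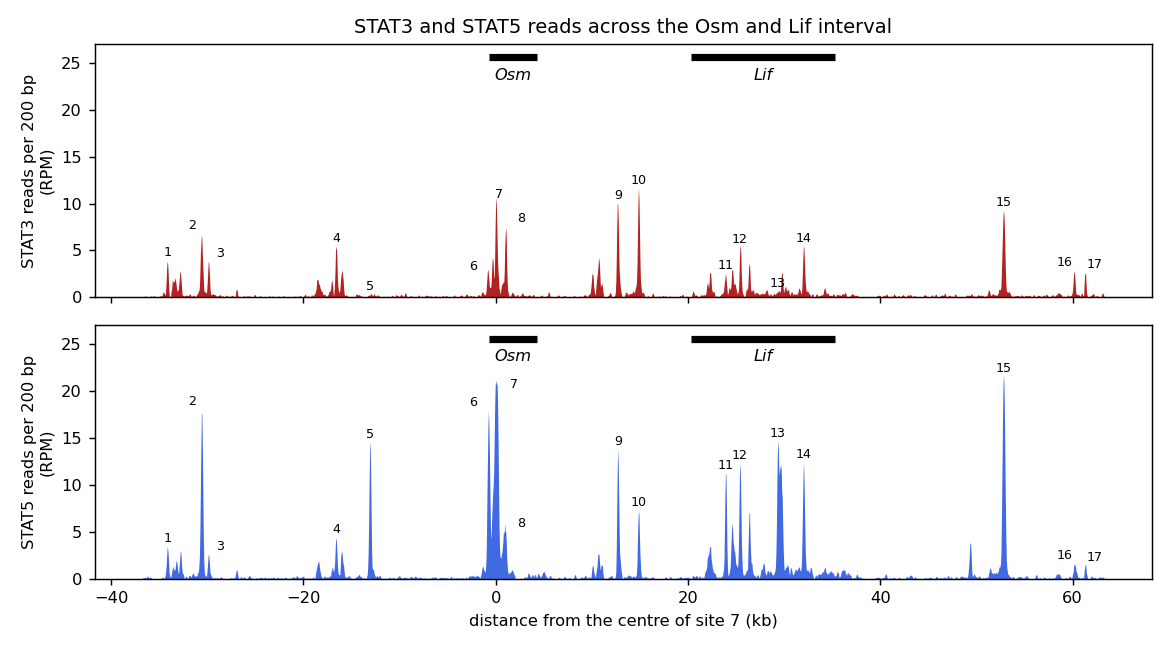
Reads of the STAT3 library (upper panel) and the STAT5 library (lower panel) in 200 bp windows, in RPM, against the distance in kb from the centre of site 7. Numbers mark the 17 sites and bars the approximate spans of Osm and Lif; the tallest STAT5 windows are site 7 at Osm with 21.1 RPM and site 15 beyond Lif with 21.7 RPM, while STAT3 is tallest at site 10 between the genes with 11.6 RPM.

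The start of Osm carried the densest block of STAT5 reads of the interval, with 424 STAT3 and 1217 STAT5 reads in the kb from 4136000 to 4136999. Osm is read in the direction of rising coordinates, so its start is the end near 4.136 Mb. The 3 kb from 4135000 to 4137999 held 775 STAT3 reads and 1900 STAT5 reads, giving a ratio of 0.353 (0.324 to 0.383). Over the approximate span of Osm the density was 7.20 STAT3 and 17.9 STAT5 RPM per kb. The genome-wide mean is 0.424 RPM per kb in either library. The block was split into sites 6, 7 and 8, and with the genome-wide mean as the only background these were joined into a single site of 3500 bp, from 4135151 to 4138650.

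Site 7, centred on 4136701, was the tallest of the 17 by the summed RPM of both libraries. It had 210 STAT3 reads, or 10.1 RPM (8.78 to 11.6), and 379 STAT5 reads, or 21.1 RPM (19.0 to 23.3). Its ratio was 0.479 (0.403 to 0.568), so it was not called higher with STAT5. The STAT5 count filled 94.8% of the 400 possible positions and the STAT3 count 52.5%. Correcting for positions already taken gave a ratio of 0.218 (0.184 to 0.259). Its limits are the uncorrected ones times the same factor, so they leave out the error of the correction itself. Counting in 400 bp, where there were 273 STAT3 and 701 STAT5 reads, gave 0.337 (0.292 to 0.388). Both lie beyond 2-fold, the corrected one with that limit.

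Site 6, centred on 4135951, had 50 STAT3 and 322 STAT5 reads, or 2.41 RPM (1.79 to 3.17) and 17.9 RPM (16.0 to 20.0). Its ratio of 0.134 (0.0976 to 0.181) put it on the STAT5 side. It was called with STAT5 alone, since the 50 STAT3 reads were only 1.53 times the local mean of the crowded block. Site 8, centred on 4137751, went the other way, with 156 STAT3 and 91 STAT5 reads and a ratio of 1.48 (1.14 to 1.94). It was called with STAT3 alone, as the 91 STAT5 reads were 1.16 times the local mean of the same block. In 400 bp, which takes in the slope of the STAT5 block, the ratio at site 8 was 1.08 (0.866 to 1.35).

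At a finer scale the ratio changed from summit to summit within the block. The STAT5 profile had 6 summits, each counted in 80 bp, where 160 reads are possible. The one at 4135991 had 10 STAT3 reads and 136 STAT5 reads, giving a ratio of 0.0636 (0.0298 to 0.120). The one at 4136351 had 48 and 79, a ratio of 0.525 (0.359 to 0.761). The tallest, at 4136691, had 106 STAT3 reads and 157 STAT5 reads, giving a ratio of 0.584 (0.452 to 0.751), but its STAT5 count filled 98.1% of the positions. Its neighbour at 4136901 had 36 STAT3 reads and 155 STAT5 reads, giving a ratio of 0.201 (0.136 to 0.290). Thus STAT3 was concentrated on the tallest summit, while STAT5 was near its ceiling over both. At 4137571 there were 19 STAT3 and 45 STAT5 reads. At 4137721, in site 8, there were 99 and 58, a ratio of 1.48 (1.06 to 2.08), the only summit of the 6 with a ratio above 1 on the RPM scale.

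**Figure D2:**
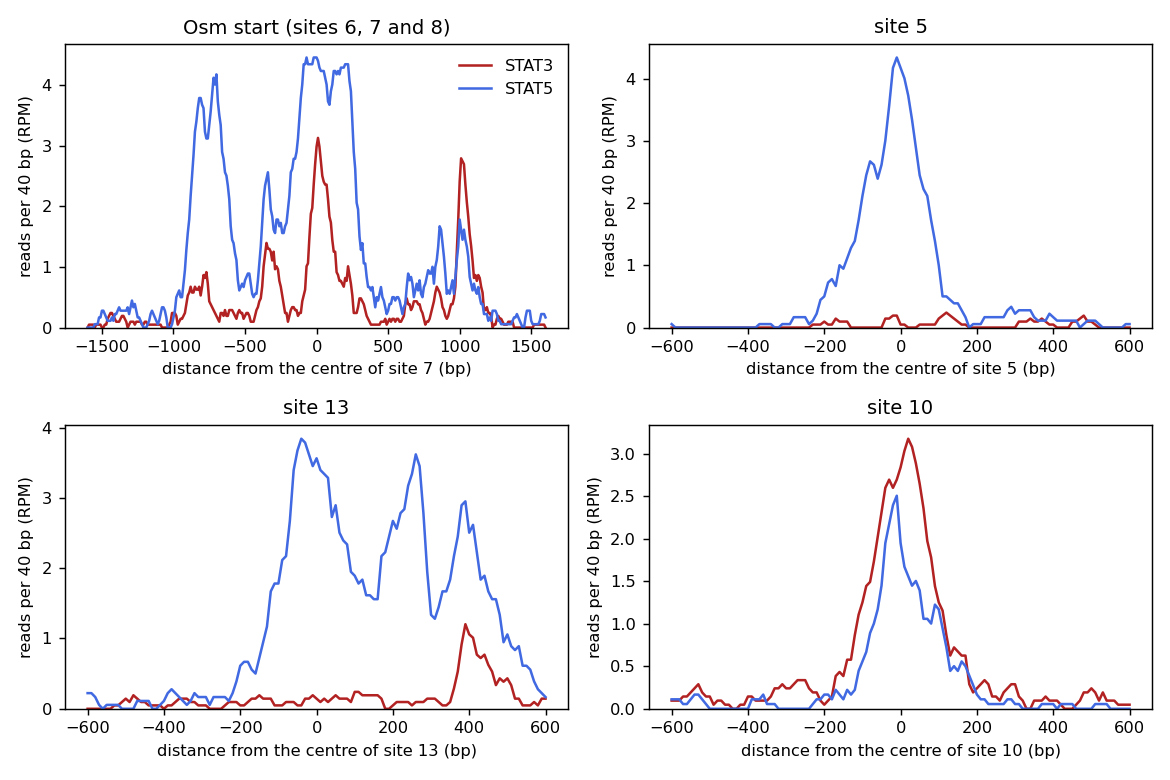
STAT3 and STAT5 reads in 40 bp windows, in RPM, against the distance in bp from the centre of site 7 at the start of Osm, site 5, site 13 and site 10; each panel has its own vertical scale. STAT5 forms several summits at Osm while STAT3 peaks at site 7 and site 8, STAT3 is near 0 under site 5 and under the first pair of summits of site 13, and STAT3 is the higher of the libraries at site 10.

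The stretch between the genes was the part where STAT3 and STAT5 reads were about level on the RPM scale. The 2 sites there, 13.4 and 15.6 kb beyond the rounded start of Osm, together had 449 STAT3 reads and 379 STAT5 reads, giving a ratio of 1.02 (0.891 to 1.18). All reads between the genes, in sites or not, numbered 1082 STAT3 and 809 STAT5, a ratio of 1.16 (1.05 to 1.27). Scaled by bins without a region, these ratios were 0.740 (0.644 to 0.850) and 0.835 (0.762 to 0.916), so the balance depends on the scaling.

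Site 9, centred on 4149401, had 208 STAT3 reads, or 10.0 RPM (8.69 to 11.5), and 248 STAT5 reads, or 13.8 RPM (12.1 to 15.6), a ratio of 0.725 (0.600 to 0.875). Site 10, centred on 4151551, was the tallest STAT3 site of the interval. It had 241 STAT3 reads, or 11.6 RPM (10.2 to 13.2), and 131 STAT5 reads, or 7.29 RPM (6.10 to 8.65), a ratio of 1.59 (1.28 to 1.98). Its interval reached close to 2 but did not lie beyond it. Scaled by bins without a region the ratio was 1.15 (0.925 to 1.43), so which library was higher depends on the scaling. STAT3 was higher at site 10 than at 98.9% of all sites, and STAT5 than at 87.9%.

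The called sites of Lif lay inside the gene, and none was centred within 3 kb of its rounded start. As the start is known to about 1 kb, site 11 may lie within 3 kb of the true start. The 4 kb around the rounded start held 123 STAT3 and 148 STAT5 reads. Of these, 82 STAT3 and 108 STAT5 reads fell in the kb from 4158000 to 4158999, in or beside a cluster near the start that fell short of a call. The nearest sites were site 10, 5.45 kb before the rounded start, and site 11, 3.60 kb after it. Lif is read in the direction of rising coordinates, per the strand of its promoter window. Over its approximate span there were 1228 STAT3 reads and 2649 STAT5 reads, giving a ratio of 0.401 (0.374 to 0.429), which is close to the 0.402 (0.368 to 0.438) over the span of Osm. Per kb this was 3.94 STAT3 and 9.83 STAT5 RPM, lower than over Osm in both libraries. The Osm span was cut at its rounded start, inside site 6 with its ratio of 0.134, so the ratio over Osm depends on that bound.

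The 4 sites within Lif had similar STAT5 counts, 201 to 263, but STAT3 counts from 12 to 113. Summed, they had 288 STAT3 reads and 908 STAT5 reads, giving a ratio of 0.274 (0.239 to 0.313). Site 11, centred on 4160601, had 53 STAT3 reads and 201 STAT5 reads, giving a ratio of 0.228 (0.165 to 0.310). Site 12, centred on 4162101, had 110 and 221, a ratio of 0.430 (0.339 to 0.543). Site 14, centred on 4168701, had 113 and 223, a ratio of 0.438 (0.346 to 0.552). Sites 12 and 14 were thus nearly alike in both libraries and were not called, while site 11 was called higher with STAT5. Scaled by bins without a region, or corrected for positions taken, sites 12 and 14 would be called as well.

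Site 13, centred on 4166051 and about 9.05 kb after the rounded start of Lif, was almost a STAT5 site alone. It had 12 STAT3 reads, or 0.577 RPM (0.298 to 1.01), and 263 STAT5 reads, or 14.6 RPM (12.9 to 16.5), a ratio of 0.0394 (0.0201 to 0.0701). The STAT3 count was below the local mean of 18.6 reads that surrounding sites produce. Within the site the libraries parted again. The summits at 4166021 and 4166301 had 5 and 4 STAT3 reads in 80 bp, where STAT5 had 128 and 113. The summit at 4166441 had 32 STAT3 reads and 91 STAT5 reads, giving a ratio of 0.304 (0.197 to 0.459). That interval does not meet those of the other summits, which reached no higher than 0.0809.

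Before Osm lay 5 sites of which the tallest were STAT5 sites. Site 5, centred on 4123651 and 12.3 kb before the rounded start of Osm, had the lowest ratio of the 17. It had 5 STAT3 reads, or 0.241 RPM (0.0781 to 0.561), and 260 STAT5 reads, or 14.5 RPM (12.8 to 16.3), a ratio of 0.0166 (0.00535 to 0.0393). From 0.5 to 2.5 kb to either side of it the mean was 2.35 STAT3 and 2.85 STAT5 reads per 200 bp, and the genome-wide means were 1.76 and 1.52. Of the 5778 sites in the genome with 200 or more STAT5 reads, 203 (3.51%) had 5 or fewer STAT3 reads and 582 (10.1%) had 12 or fewer.

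Site 2, centred on 4106126, had 140 STAT3 reads and 323 STAT5 reads, giving a ratio of 0.375 (0.305 to 0.458), and was called higher with STAT5. Only 0.725 kb away, site 3 had 80 STAT3 reads and 47 STAT5 reads, giving a ratio of 1.47 (1.01 to 2.16). Sites 1 and 4 had 82 and 113 STAT3 reads and 62 and 78 STAT5 reads, with ratios of 1.14 (0.812 to 1.62) and 1.25 (0.930 to 1.69) whose intervals hold 1. Site 15, 32.5 kb after the rounded start of Lif and beyond its end, was about as tall as site 7. It had 191 STAT3 reads, or 9.19 RPM (7.93 to 10.6), and 389 STAT5 reads, or 21.7 RPM (19.6 to 23.9), a ratio of 0.424 (0.355 to 0.506). STAT5 filled 97.3% of its positions, and after the correction for positions taken the ratio was 0.156 (0.131 to 0.186). As at site 7, these limits leave out the error of the correction. Sites 16 and 17 were the lowest of the 17 in summed RPM. They had 59 and 54 STAT3 reads and 29 and 26 STAT5 reads, with the highest ratios of the 17, 1.76 (1.11 to 2.85) and 1.80 (1.10 to 2.99). On GRCm38.p6 the nearest protein-coding gene before Osm is Castor1, an arginine sensor of the mTORC1 pathway, and the one after Lif is Hormad2, a meiotic gene. No site was assigned to either.

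**Figure D3:**
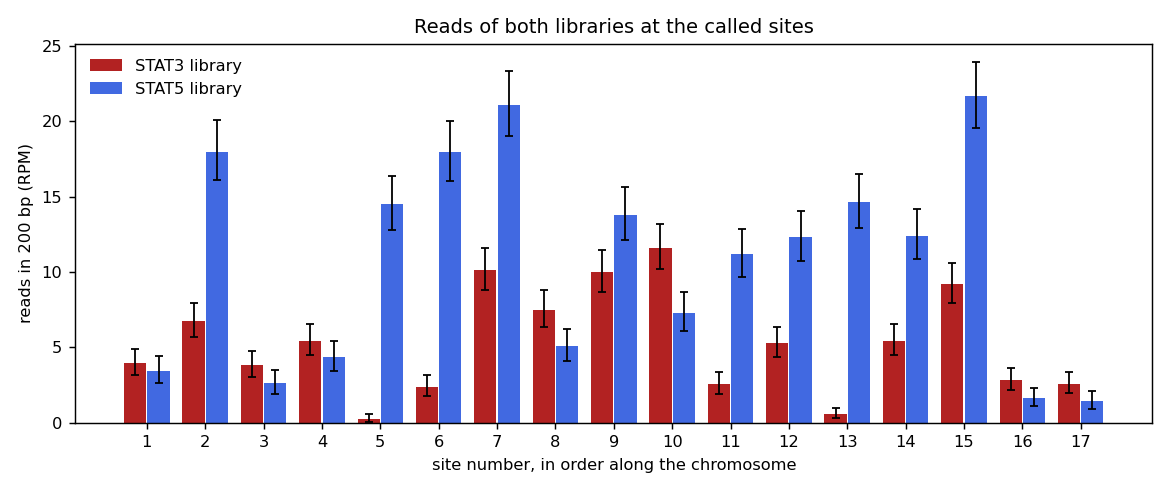
Reads in 200 bp at each of the 17 sites in RPM, with the STAT3 library left of the STAT5 library; error bars are exact 95% Poisson intervals and cover counting error only. STAT5 stands at 11.2 to 21.7 RPM at 10 sites, while STAT3 runs from 0.241 RPM at site 5 to 11.6 RPM at site 10.

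Across the 17 sites the ratio spanned 0.0166 to 1.80 with a median of 0.479, against a median of 0.741 over all sites, whose quartiles were 0.209 and 1.45. The interval lay below 1 at 10 sites (58.8%), against 43.7% of all sites. It lay above 1 at 5 (29.4%; sites 3, 8, 10, 16 and 17), against 17.5% of all sites, and held 1 at 2 (11.8%), against 38.8%. Scaled by bins without a region, it lay below 1 at 10 sites and above 1 at 0, against 54.2% and 8.11% of all sites. More reads give narrower intervals, and the sites here held more reads than most, so these shares are not matched for height. Since the ratio uses the STAT5 count, the next split is a description: the 10 sites with ratios below 1 had 201 to 389 reads and the other 7 had 26 to 131. STAT3 counts of these sets overlapped, at 5 to 210 and 54 to 241 reads. Among the 10 sites with 200 or more STAT5 reads 5 were called higher with STAT5, against 69.3% of such sites in the genome, and their median STAT3 count was 111.5 against 77.

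**Figure D4:**
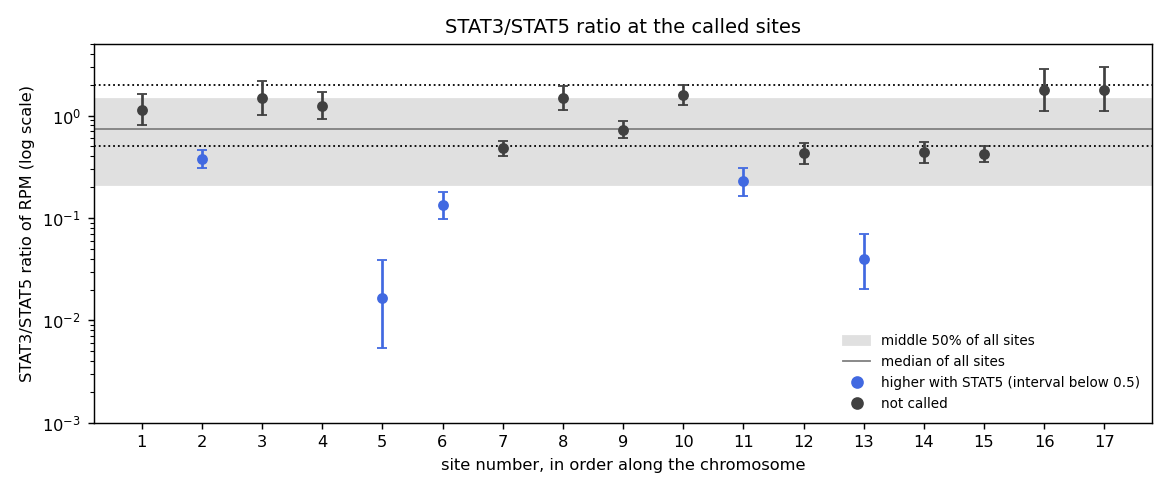
STAT3/STAT5 ratio of RPM at each of the 17 sites on a log scale, with exact 95% intervals; dotted lines mark 0.5 and 2, the grey band the middle 50% of all sites (0.209 to 1.45) and the grey line their median (0.741). The 5 sites called higher with STAT5 (2, 5, 6, 11 and 13) are in blue, and no interval lies wholly above 2.

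At the 10 sites called with both antibodies, the median fragment positions of STAT3 and STAT5 lay 1 to 25 bp apart, with a median of 13 bp. Both medians were taken from reads in the same 200 bp at each site, which by itself keeps them close. Sites 5 and 13, with only 5 and 12 STAT3 reads, gave -21.5 and 20 bp (STAT3 minus STAT5). These distances therefore cannot show whether the summits coincide. Both strands contributed at every site: the counts at site 7 were 103 plus and 107 minus STAT3 reads and 192 plus and 187 minus STAT5 reads, and those of STAT5 at site 5 were 115 and 145. At sites 16 and 17, with few reads, STAT5 had 14 plus and 15 minus, and 13 plus and 13 minus reads.

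Several clusters fell short of the call. A site needed 4-fold over the local mean, and 5 of the 17 sites reached 8-fold in either library (sites 2, 5, 9, 10 and 15). Just inside the limit, the STAT5 region of site 6 stood at 4.10-fold. Just outside lay a cluster centred on 4147401 between the genes, with 88 STAT3 and 47 STAT5 reads and at most 3.78-fold with STAT3. One near the start of Lif, centred on 4158951, had 53 STAT3 and 62 STAT5 reads and reached 3.75-fold with STAT3. Another beyond Lif, centred on 4186051, had 5 STAT3 and 71 STAT5 reads and reached 3.71-fold with STAT5, a ratio of 0.0609 (0.0192 to 0.149). Within Lif, the cluster centred on 4163101 had 74 STAT3 and 127 STAT5 reads, with at most 3.45-fold. With the genome-wide mean alone the interval held 27 sites, of which 20 had a STAT3 region and 25 a STAT5 region, these clusters among them. The shares over all sites at this setting are not given, so these counts cannot be set against a background.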

How the data were processed

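The deposited files list aligned reads on mm9 (build per the submitters' processing notes), 1 line per 25 nt read and no header. Aligner and filters: not given in the sources used here. The deposited score was 0 in every line and was not used. The authors' files held no position and strand more than once, which caps reads in 200 bp at 400.

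Read 5′ ends were moved 50 bp in the 3′ direction and counted in 200 bp windows every 50 bp. A window was called with at least 5 reads, a count of 4 or more times the highest mean among genome, 5 kb and 10 kb, and a 1-sided Poisson p, adjusted by Benjamini-Hochberg over windows with a read, of at most 1e-05. The local means include the window and its neighbours, which can hide sites in crowded stretches. Windows up to 100 bp apart formed a region, and a region was dropped if 1 strand gave over 80% of its summit reads (105 with STAT3, 192 with STAT5), leaving 57317 and 71008. Regions that overlapped were joined to a site, with the taller summit as its centre. Reads outside sites were counted beyond 200 bp of each site. Ratios have exact conditional (Clopper-Pearson) 95% intervals, and levels exact Poisson ones. The correction for positions taken multiplied a ratio and its limits by the same factor, so corrected intervals are not exact. The caller was tested on simulated reads, with single sites far apart on an even background, so crowded stretches were not tested. Ratio intervals were checked there only at sites with low counts. All sites of the interval are described; the rule fixed for named sites took the 12 with the highest summed RPM, and the others were named after their values were seen. So were the summits, the limit of 200 reads and the uncalled clusters. The interval and gene list were chosen with earlier results of these data known. The tools were scipy 1.17.1 and numpy 2.4.6 for tests and counts, pandas 2.3.3 for tables and matplotlib 3.10.9 for figures, under Python 3.11.15.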

Additional observations from a re-analysis of the deposited data

How the results depend on the processing

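Each alternative but 1 was planned and changed 1 choice. Counts within 1.5 times, ratios within the 95% interval and offsets within the range over sites were taken as kept, which held for 30 recalculated values of the planned ones; 14 moved, and 1 crossed 1. No alternative called a site higher with STAT3. A minimum of 8-fold left 2 sites with a STAT3 region, 4 with a STAT5 region and 2 of 5 higher with STAT5 (35.2% of all sites found at 8-fold), and the ratio outside sites was 0.583, since most sites then count as outside. Against only the genome-wide mean, 20 sites had a STAT3 region and 25 a STAT5 region, the summed ratio was 0.532, and the ratio outside sites was 1.04 (0.937 to 1.15). With those wider bounds but without the further sites it was 0.858 (0.803 to 0.917), an alternative chosen after seeing the data. For 8-fold and for the genome-wide mean alone, the share of all sites with a STAT3 or a STAT5 region is not given. The counts of regions at these settings thus describe the interval only. Scaling by bins without a region gave 9 sites higher with STAT5, a summed ratio of 0.356 and a ratio outside sites of 0.600. An interval beyond 1.5-fold also gave 9, and so did the correction for positions taken (33.6% and 29.3% of all sites), with a summed ratio of 0.315. The shares of all sites are not matched for the height of the sites here. Counting in 400 bp gave a summed ratio of 0.456. Among the 12 sites with the highest summed RPM, 37 recalculated calls stayed. In 11 recalculations an uncalled site, with its ratio already below 0.5, had its whole interval below 0.5. No paired analysis was possible because each antibody had 1 library. Intervals cover counting error only, those of corrected ratios leave out the error of the correction, and the ceiling of 400 reads limits ratios at tall sites.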

Other observations

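The 100 kb on either side also held sites of both antibodies. From 4000000 to 4100000 there were 12 sites with 1787 STAT3 reads and 1679 STAT5 reads in all, giving a ratio of 0.920 (0.860 to 0.984), and 3 sites were called higher with STAT5. The tallest counts at a site there were 61 STAT3 and 131 STAT5 reads. From 4200000 to 4300000 there were 13 sites with 3116 STAT3 reads and 5457 STAT5 reads, giving a ratio of 0.494 (0.472 to 0.516), and 5 sites were called higher with STAT5. A site there reached 392 STAT5 reads. Site 15 had 389, and both counts are near the ceiling of 400, so their heights cannot be compared. The highest STAT3 count there was 220. Neither stretch had a site called higher with STAT3. Of all sites in the genome, 27.6% were called higher with STAT5 and 3.18% with STAT3. With 12 and 13 sites, these counts are too few to set apart from those shares. The tall STAT5 sites thus continued past Lif and were lower before the interval.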
